A study of Mus musculus with 9 samples.

Results

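The platelet-derived growth factor (PDGF) system is described here in 9 RNA sequencing libraries of mouse cells. Its 6 genes, the ligand genes Pdgfa, Pdgfb, Pdgfc and Pdgfd and the receptor genes Pdgfra and Pdgfrb, were taken by symbol from a table of 56289 gene identifiers, and all 6 were found and passed the filter on low values. The labels describe every library as RAW264.7, a macrophage-like line of BALB/c origin, and put 3 libraries in each of 3 groups. Untreated cells received no agent, the TNF group received TNF-α (tumour necrosis factor alpha) for 24 h, and the TNF plus WBG group received WBG (Wang Bi granules, a herbal preparation) together with TNF-α for 24 h. No dose is given in the labels, no time is given for the untreated cells, and whether replicates were separate cultures is not stated. A difference in culture time therefore cannot be told apart from the treatments, and p-values measure the spread between these libraries, which may be technical.

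PDGFs are secreted dimers that make fibroblasts, smooth muscle cells and pericytes divide and migrate. PDGF-A and PDGF-B are cleaved by furin-type proteases before secretion, whereas PDGF-C and PDGF-D leave the cell in a latent form whose CUB domains are removed outside it by plasminogen activators. The receptors are tyrosine kinases that pair when a ligand binds: the alpha receptor takes up the A, B and C chains and the beta receptor mainly the B and D chains. In joints, fibroblasts of the synovial lining carry both receptors and respond to PDGF by growth and migration.

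Values are FPKM (fragments per kilobase of gene model, scaled to the depth of the library), as deposited. Being scaled by length, they allow levels of different genes to be set side by side. The file does not give the depth of the libraries. Steps in the values of single-exon genes put it at 18.95 to 26.13 M (mega) fragments per library, if a step is 1 fragment. Summed FPKM ran from 427781 to 436809 per library. The label was checked against markers. Of 10 macrophage genes, 2 (Cd14 and Cd68) reached a mean level of 1 FPKM. The value was 0 in every one of the 9 libraries for Adgre1 (F4/80), Ptprc (CD45) and Itgam (CD11b). Of 14 fibroblast genes 12 reached that level, with a median of 208.8 FPKM over the list. Lum was listed at 0 and Thy1 had at most 0.07 FPKM in any library. Dcn and Fbln2 were low, with means of 2.94 and 1.5 FPKM in untreated libraries. Of 12 genes of mural cells (pericytes and smooth muscle) 3 did, namely Acta2, Mcam and Notch3, while Abcc9 and Kcnj8 were listed at 0. Of 10 endothelial genes only Flt1 did, and of 8 epithelial genes 0 did. The macrophage markers Adgre1, Ptprc and Itgam were thus absent. The genes below were measured in libraries that carry most, but not all, of the fibroblast list. The summed fibroblast list lay between 4548 and 4917 FPKM in untreated, 4874 and 5130 FPKM in TNF, and 4810 and 4956 FPKM in TNF plus WBG libraries. The summed mural list was 113.2 to 116.1 FPKM in untreated, 122.0 to 128.6 FPKM in TNF and 117.7 to 121.0 FPKM in TNF plus WBG libraries, with no overlap between groups. Within it Acta2, smooth muscle actin, was 26.9 ± 0.91 FPKM in untreated and 34.4 ± 2.31 FPKM in TNF libraries (limma log2 fold change 0.34, adjusted p = 0.0115), and 28.2 ± 2.07 FPKM with TNF plus WBG. Mcam and Notch3 did not pass (log2 0.03 and 0.00 with TNF). The summed endothelial list, mostly Flt1, was 2.4 to 3.21, 3.85 to 3.96 and 4.0 to 5.04 FPKM in the same order, and the macrophage list 5.87 to 7.23, 6.86 to 7.86 and 7.78 to 10.21 FPKM. The part of these lists in the results below was not tested.

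Pdgfrb, which encodes the beta receptor, was the most abundant of the 6 genes in every library. Its untreated libraries had 69.2, 69.4 and 71.6 FPKM, the TNF libraries 49.3, 48.9 and 48.2 FPKM, and the TNF plus WBG libraries 48.2, 45.7 and 50.1 FPKM. All 6 treated libraries thus lay below all 3 untreated ones. The mean of 70.0 ± 1.31 FPKM in untreated cells (SD, n = 3) was above that of 93.6% of the 13026 genes tested. With TNF it was 48.8 ± 0.57 FPKM, and with TNF plus WBG 48.0 ± 2.23 FPKM.

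Pdgfra, the gene of the alpha receptor, was about an order of magnitude lower. It had 5.10, 5.98 and 5.54 FPKM in untreated libraries, 6.24, 5.45 and 7.78 FPKM with TNF, and 4.98, 5.24 and 5.68 FPKM with TNF plus WBG. The groups overlapped, and TNF replicate 3 stood above all other libraries. Pdgfrb made up 92.7 ± 0.55% of the summed FPKM of the receptor genes in untreated libraries, 88.3 ± 1.98% with TNF and 90.1 ± 0.51% with TNF plus WBG (SD, n = 3).

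Among the ligands, Pdgfb encodes the B chain, which binds both receptors. It had 18.1, 19.4 and 18.1 FPKM in untreated libraries, 25.1, 24.0 and 24.3 FPKM with TNF, and 23.5, 23.0 and 23.6 FPKM with TNF plus WBG. The treated libraries all lay above the untreated ones, and those with WBG all lay below those with TNF alone. Pdgfa encodes the A chain, which binds the alpha receptor. It had 23.3, 28.6 and 20.6 FPKM in untreated libraries, 19.9, 21.6 and 20.5 FPKM with TNF, and 23.4, 27.8 and 22.7 FPKM with TNF plus WBG. Replicate 2 was the highest of each group for this gene, and the untreated and TNF libraries overlapped.

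Pdgfc and Pdgfd encode the chains that need proteolysis outside the cell. Pdgfc was the steadier of them, at 12.4 to 13.0 FPKM in untreated, 11.4 to 12.5 FPKM in TNF and 11.3 to 11.7 FPKM in TNF plus WBG libraries. Pdgfd was the lowest of the 6 genes, with 2.13, 2.34 and 1.34 FPKM in untreated libraries, 1.48, 1.57 and 1.44 FPKM with TNF, and 1.73, 1.84 and 1.67 FPKM with TNF plus WBG. Untreated replicate 3 lay below every treated library for Pdgfd, and the other untreated replicates lay above every one.

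**Figure D1:**
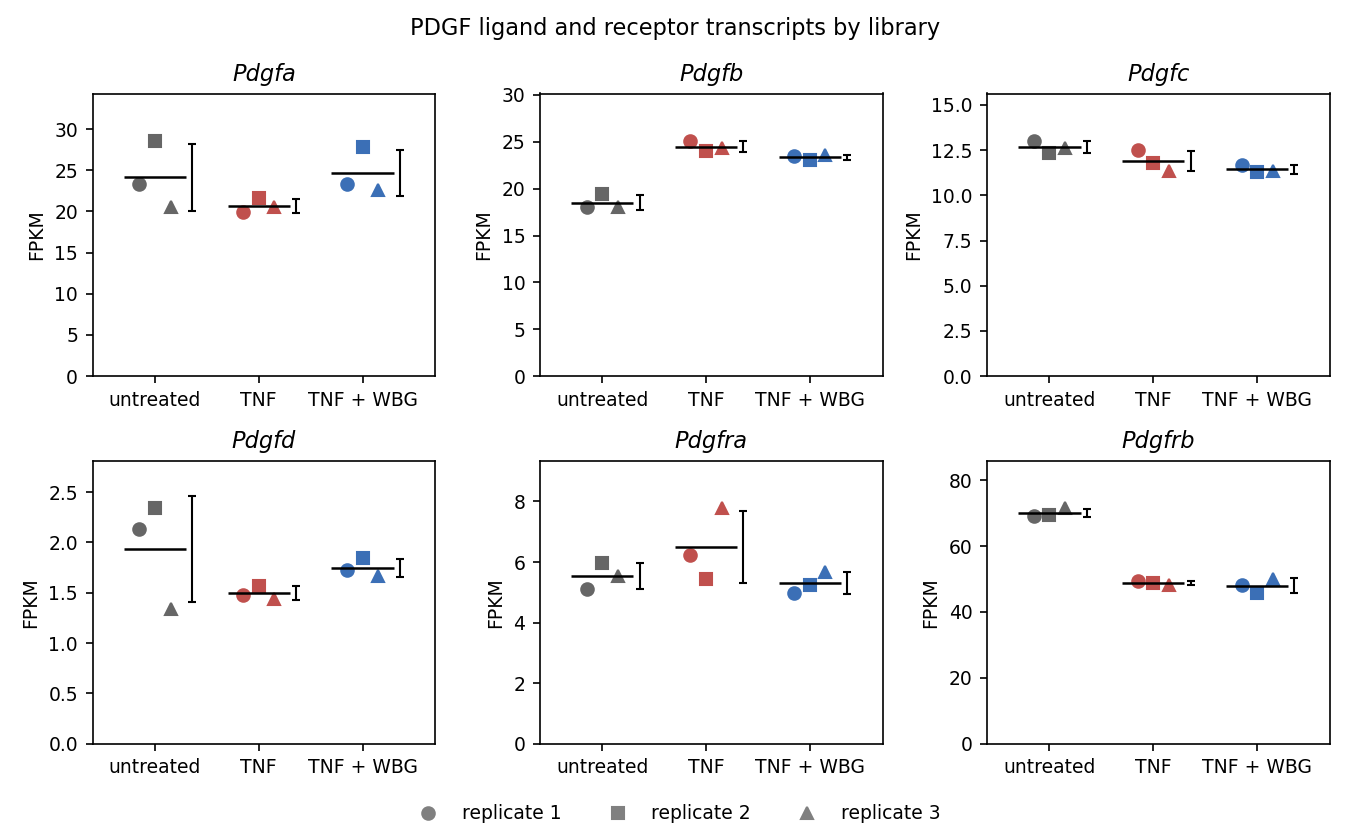
FPKM of the 6 PDGF genes (vertical axis, from 0) in each library, with circles, squares and triangles for replicates 1, 2 and 3, a line at the group mean and a bar of ± 1 SD (n = 3). Pdgfrb drops from about 70.0 to 48.8 FPKM and Pdgfb climbs from 18.5 to 24.5 FPKM with TNF. Relative to the group mean, the SD is largest for untreated Pdgfd (27.3%), Pdgfra with TNF (18.2%) and untreated Pdgfa (16.85%).

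The order of the levels changed in 1 place between groups, a feature singled out after its values were seen. Untreated libraries ran from Pdgfrb over Pdgfa, Pdgfb, Pdgfc and Pdgfra to Pdgfd, and no neighbours in that order overlapped. With TNF, Pdgfb stood above Pdgfa in every library (log2 ratio 0.15 to 0.33), whereas in untreated libraries it stood below it in every one (-0.56 to -0.19). With TNF plus WBG the libraries of the A and B chain genes overlapped, and the ratio lay between -0.27 and 0.06. All other neighbours in the order kept their places in the 3 groups without overlap.

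Promoter sequences of 4 of the 6 genes (Pdgfa with 2 starts, Pdgfc, Pdgfd and Pdgfra) are in the RefSeq table used here, of build GRCm38.p6, and Pdgfb is not in that table. The 250 bases before each start were searched on both strands for the GC box GGGCGG, for the EGR1 motif GCGNGGGCG, for the box named CCAAT, for the TATA box TATAAA and for the NF-kB motif. Shown are the ligand promoters that hold a match to the NF-kB motif, since TNF is known to activate NF-kB. Motif matches are in capitals. The upstream start of Pdgfa (chr5:138994945-138995194, minus strand) holds 2 GC boxes and 1 NF-kB motif, which do not overlap, and that of Pdgfc (chr3:81036166-81036415, plus strand) holds 1 NF-kB motif.
Pdgfa: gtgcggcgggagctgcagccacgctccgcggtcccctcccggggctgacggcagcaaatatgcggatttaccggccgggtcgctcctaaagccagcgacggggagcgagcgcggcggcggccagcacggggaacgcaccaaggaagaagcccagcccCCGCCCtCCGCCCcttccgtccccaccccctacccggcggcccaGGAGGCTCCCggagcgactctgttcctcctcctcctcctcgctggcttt
Pdgfc: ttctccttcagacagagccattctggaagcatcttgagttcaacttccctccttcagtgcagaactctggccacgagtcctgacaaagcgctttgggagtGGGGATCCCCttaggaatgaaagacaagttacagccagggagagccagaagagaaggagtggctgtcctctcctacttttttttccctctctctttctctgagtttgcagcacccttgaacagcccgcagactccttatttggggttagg
GC content was 72.4% before the upstream Pdgfa start, above that of 93.6% of all 32851 promoters in the table, and 50.8% before the Pdgfc start. The NF-kB motif occurred in 7.3% of all promoters and the GC box in 32.7%. The other Pdgfa start held 1 GC box, the Pdgfd promoter 1 TATAAA (present in 12.4% of all promoters) and the Pdgfra promoter no match. CCAAT (33.8% of all promoters) and the EGR1 motif (4.7%) were found in none of the 5. These are matches of letters only, and nothing was measured at them in this series. Neither Pdgfa nor Pdgfc passed the test with TNF given below (limma adjusted p = 0.333 and 0.35). No promoter of Pdgfb or Pdgfrb, the genes that did pass, was among those searched.

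TNF against untreated asks what the cytokine alone did to the PDGF genes. Pdgfrb fell and Pdgfb rose, and the other 4 genes did not pass the test. The beta receptor gene had 0.70 times its untreated level, with a log2 fold change of -0.51 ± 0.04 (standard error of the fit; limma adjusted p = 6.62e-05), and the B chain gene 1.32 times, with 0.39 ± 0.04 (adjusted p = 0.000584). A total of 2 of 6 genes were thus called, where 10.6% of all 13026 genes tested were called, 6.43% as higher and 4.21% as lower. The libraries of the groups did not overlap for 2 of 6, and for 30% of all genes. Since the libraries are bulk samples, fewer cells carrying a transcript and less of it per cell cannot be told apart.

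For Pdgfa the log2 fold change with TNF was -0.20, with a 95% interval from -0.47 to 0.06 (adjusted p = 0.333, limma). Pdgfra had 0.19 (-0.07 to 0.44; adjusted p = 0.361) and Pdgfc -0.09 (-0.20 to 0.03; adjusted p = 0.35). Pdgfd had -0.22 (-0.51 to 0.07; adjusted p = 0.349). Without untreated replicate 3, the low library noted above, the value of Pdgfd was -0.37 and passed (adjusted p = 0.0366). The intervals of Pdgfa, Pdgfd and Pdgfra reach changes as large as that of Pdgfb, and that of Pdgfc does not.

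**Figure D2:**
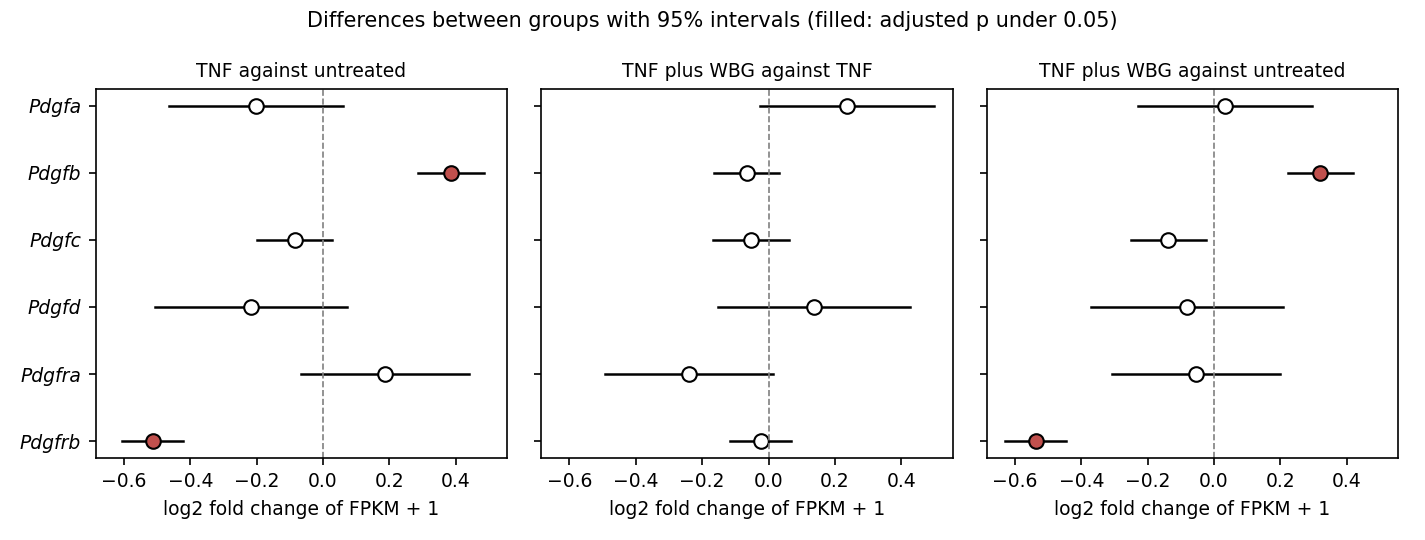
Log2 fold changes of FPKM + 1 (horizontal axis) of the 6 PDGF genes in the 3 comparisons, with 95% intervals of the limma fit. Filled points passed at an adjusted p under 0.05: Pdgfb (0.39 and 0.32) and Pdgfrb (-0.51 and -0.54) in both comparisons with untreated libraries, and no gene between TNF plus WBG and TNF.

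What the granules added to TNF was read as TNF plus WBG against TNF. The fit held all 9 libraries, so untreated libraries also enter the spread behind its intervals and p-values. No PDGF gene was called (limma, adjusted p of at least 0.582), where 0.0998% of all genes tested were called, 0.0691% as higher and 0.0307% as lower. An unadjusted p under 0.05 was reached by 0 of 6 and by 9.06% of all genes tested. Pdgfrb had a log2 fold change of -0.02 (95% interval -0.12 to 0.07) and Pdgfb -0.07 (-0.16 to 0.03). Pdgfa was 24.6 ± 2.81 against 20.7 ± 0.86 FPKM (log2 0.24, -0.03 to 0.50; adjusted p = 0.6), and Pdgfra 5.30 ± 0.35 against 6.49 ± 1.18 FPKM (-0.24, -0.49 to 0.01; adjusted p = 0.582). Pdgfc had -0.05 (-0.17 to 0.06) and Pdgfd 0.14 (-0.15 to 0.43). The libraries did not overlap for Pdgfa and Pdgfd, higher with WBG, and Pdgfb, lower with it, 3 of 6 where 14.7% of all genes did not overlap.

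TNF plus WBG against untreated shares its libraries with the comparisons above. Pdgfrb fell (0.69 times, log2 -0.54 ± 0.04; limma adjusted p = 5.98e-05) and Pdgfb rose (1.26 times, 0.32 ± 0.04; adjusted p = 0.00188), 2 of 6 where 9.19% of all genes tested were called, 5.52% as higher and 3.67% as lower. Pdgfc was 11.4 ± 0.23 against 12.7 ± 0.33 FPKM, without overlap, but did not pass (log2 -0.14, adjusted p = 0.138). No overlap was seen for 3 of 6, and for 28.1% of all genes. The differences of Pdgfa (0.03), Pdgfra (-0.05) and Pdgfd (-0.08) had intervals that spanned 0.

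The balance within the family was taken per library and compared by exact two-sided permutation tests over 3 against 3 libraries, which cannot go below p = 0.1. The log2 ratio of Pdgfra to Pdgfrb was -3.66 ± 0.12 in untreated, -2.93 ± 0.27 in TNF and -3.18 ± 0.08 in TNF plus WBG libraries (SD, n = 3). Both treated groups lay above the untreated one without overlap (exact p = 0.1 for each, 0.18 adjusted over the 9 tests of this kind), and they overlapped with each other (exact p = 0.3). Summed over the 4 ligand genes, levels were 57.3 ± 5.07 FPKM in untreated, 58.6 ± 0.82 FPKM in TNF and 61.2 ± 2.50 FPKM in TNF plus WBG libraries. The untreated libraries overlapped with both other groups (exact p = 0.7 against TNF and 0.3 against TNF plus WBG), and the treated groups did not overlap with each other (exact p = 0.1, adjusted p = 0.18).

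Pdgfa supplied 42.0 ± 3.31% of this sum in untreated, 35.3 ± 1.45% in TNF and 40.2 ± 2.90% in TNF plus WBG libraries. The TNF libraries lay below those of both other groups (exact p = 0.1 for each, adjusted p = 0.18), which overlapped with each other (exact p = 0.5). Pdgfb supplied 32.4 ± 1.75%, 41.8 ± 0.98% and 38.2 ± 2.00% in the same order. Transcripts of the beta receptor exceeded those of the B chain 3.79 ± 0.19 times per library without treatment, 1.99 ± 0.04 times with TNF and 2.06 ± 0.07 times with TNF plus WBG. The treated libraries lay between 1.96 and 2.13 and the untreated ones between 3.58 and 3.96. This ratio and the Pdgfb share were chosen after the values were seen and were not tested.

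**Figure D3:**
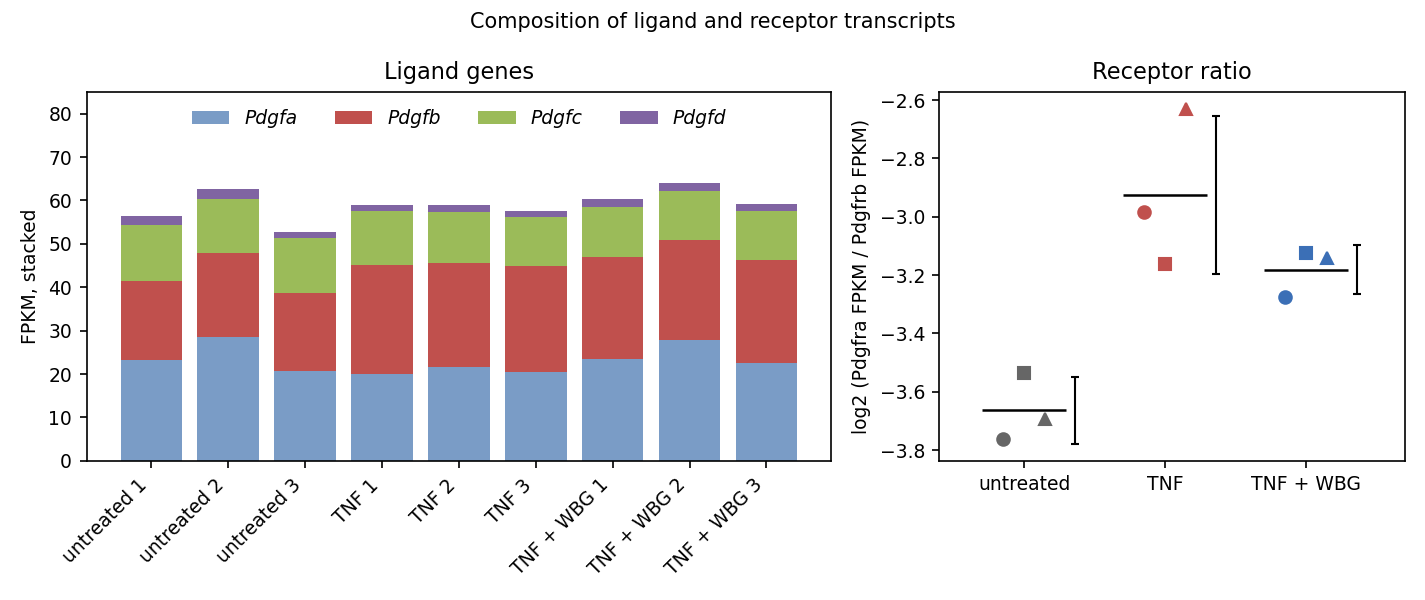
Left, FPKM of the 4 ligand genes stacked per library. Right, log2 ratio of Pdgfra to Pdgfrb FPKM per library, with the group mean and ± 1 SD (n = 3), circles, squares and triangles standing for replicates 1, 2 and 3. The stacks keep a similar height (52.7 to 64.0 FPKM) while the Pdgfb layer is thicker in treated libraries, and the receptor ratio of all 6 treated libraries lies above the 3 untreated ones.

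Other genes around the pathway were read from 6 lists with 132 distinct genes, 115 of them tested. The first holds proteases that process PDGFs and proteins that bind or store them. Of 12 tested genes, 2 rose and 3 fell with TNF (limma, median log2 fold change 0.00, as for all genes). That is 41.7% of the tested list, where 10.6% of all genes were called. The lists were chosen with earlier results of these data known, so such shares are a description. Plat, tissue plasminogen activator, which activates PDGF-C, fell from 67.4 ± 0.88 to 53.4 ± 1.86 FPKM (log2 -0.33, adjusted p = 0.00211). Nrp1, a neuropilin that binds PDGFs, fell from 20.4 ± 1.43 to 16.3 ± 0.26 FPKM (-0.31), and the convertase Furin from 69.1 ± 3.15 to 61.7 ± 1.42 FPKM (-0.16). The related neuropilin Nrp2 (0.16) and the heparan sulfate proteoglycan Sdc4 (0.25) rose. Of these 5, Plat kept its call in all 9 omissions of a library. On leaving out TNF replicate 2 or 3, the rises numbered 0, and on leaving out any untreated library, the first TNF library or the first library with WBG they numbered 1. The falls numbered 1 when the second untreated library or TNF replicate 2 or 3 was left out. Furin lost its call in 8 omissions (adjusted p up to 0.127), Nrp2 in 6 (0.113), Nrp1 in 4 (0.0665) and Sdc4 in 3 (0.0545).

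Of 35 adaptors and kinases that carry the receptor signal, 3 rose, 1 fell and 31 did not pass, with a median log2 fold change of -0.02. The 4 called are 11.4% of the list, near the 10.6% of all genes. Those that did not pass reached from Akt2 (-0.41, standard error 0.27) to Crk (0.80, standard error 0.35), a pair picked out after their values were seen. Pik3r1, a regulatory subunit of PI 3-kinase, rose from 23.7 ± 0.86 to 29.5 ± 0.23 FPKM (0.31, limma adjusted p = 0.00164), and the docking protein Gab1 from 28.8 ± 1.21 to 33.8 ± 0.91 FPKM (0.23). Sos2, a RAS exchange factor, fell from 8.97 ± 0.41 to 5.95 ± 0.71 FPKM (-0.52, adjusted p = 0.0045). In this list 2 genes fell without TNF plus WBG replicate 2. Of 20 genes that restrain receptor signalling 1 rose and 1 fell (median 0.01), which is 10.0% and again near the share of all genes. Lrig1, a membrane protein that dampens growth factor receptors, rose from 46.6 ± 0.91 to 58.0 ± 2.63 FPKM (0.31, adjusted p = 0.0014), and Dusp4, a MAP kinase phosphatase, fell from 8.36 ± 0.83 to 6.54 ± 0.44 FPKM (-0.31). Dusp4 lost its call in 8 of 9 omissions (adjusted p up to 0.135). The fall in this list became 0 in 7 of these, all but those of untreated replicate 2 and TNF plus WBG replicate 2.

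Early genes known to respond to PDGF in fibroblasts moved both ways with TNF, 7 of 22 up and 4 down. This is 50.0% of those tested, against 10.6% of all genes. Their median log2 fold change was 0.13, against 0.00 over all genes. Ccl2 and Cxcl1, chemokine genes first isolated as PDGF-induced JE and KC, rose 7.37-fold to 265.2 ± 3.51 FPKM and 7.59-fold to 10.4 ± 0.99 FPKM, and the related chemokine gene Ccl7 rose 3.02-fold to 50.9 ± 2.12 FPKM. Jun (log2 -1.31), Fos (-0.85) and Egr3 (-0.59), transcription factors that serum and PDGF induce early, fell, as did Egr1, which stands in this list and in that of the regulators. Other transcription factor genes of the list rose, here picked out after their values were seen. They were Junb (0.45, limma adjusted p = 0.000699), Nr4a1 (0.32, 0.0195) and Maff (0.26, 0.0369). Egr3 lost its call without untreated replicate 3 or TNF replicate 3 (adjusted p up to 0.0589). These genes also answer to many other signals, TNF among them, and the list does not measure receptor activity.

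Relatives of the family were the VEGFs and the other class III receptor kinases with their ligands. Of 9 tested genes 5 rose and 1 fell with TNF (median log2 fold change 0.31), which is 66.7%, against 10.6% of all genes. Csf1, a ligand of the CSF1 receptor, rose 2.58-fold to 55.9 ± 4.0 FPKM (limma adjusted p = 2.67e-06), and Il34, its other ligand, 1.41-fold to 23.1 ± 0.97 FPKM (0.00202). Flt3l, the ligand of FLT3, rose to 4.11 ± 0.37 FPKM (0.0277) and Kitl, the ligand of KIT, fell to 14.0 ± 0.89 FPKM (0.0243). The receptors of these ligands were hardly measured, with at most 0.07 FPKM for Csf1r, 0.01 FPKM for Kit and 0.77 FPKM for Flt3 in any library, genes picked out after their values were seen. Of the VEGF receptor genes, likewise picked out, Flt1 rose from 2.6 ± 0.40 to 3.65 ± 0.09 FPKM (0.38, limma adjusted p = 0.048). Kdr and Flt4 had at most 0.02 and 0.32 FPKM. Of the ligand genes Csf1, Il34, Flt3l and Kitl, only Csf1 and Il34 kept their calls in all 9 omissions. Of the 5 rises, 2 were left when replicate 1 or 3 of either the untreated or the TNF group was omitted, and 3 when the second TNF library or the first with WBG was. The number that fell was 0 on omission of replicate 2 or 3 of the untreated or the TNF group.

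Factors known to regulate PDGF receptor or ligand genes made up the last list. Of 21 tested, 5 rose and 1 fell with TNF (median log2 fold change 0.08), which is 28.6%, against 10.6% of all genes. Trp53, the p53 gene, rose from 90.0 ± 1.16 to 135.3 ± 3.69 FPKM (0.58, limma adjusted p = 1.52e-05), the C/EBP factor Cebpd from 7.0 ± 0.28 to 11.1 ± 0.28 FPKM (0.59) and the forkhead factor Foxf1 from 24.5 ± 0.30 to 31.5 ± 0.08 FPKM (0.35). Egr1, which binds GC-rich PDGF promoters, fell from 7.41 ± 0.30 to 4.66 ± 0.18 FPKM (-0.57, adjusted p = 0.00223). Without TNF plus WBG replicate 2, 2 genes of this list fell. The NF-Y subunit genes Nfya, Nfyb and Nfyc, whose product reads CCAAT boxes, did not pass, and were likewise picked out after their values were seen.

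**Figure D4:**
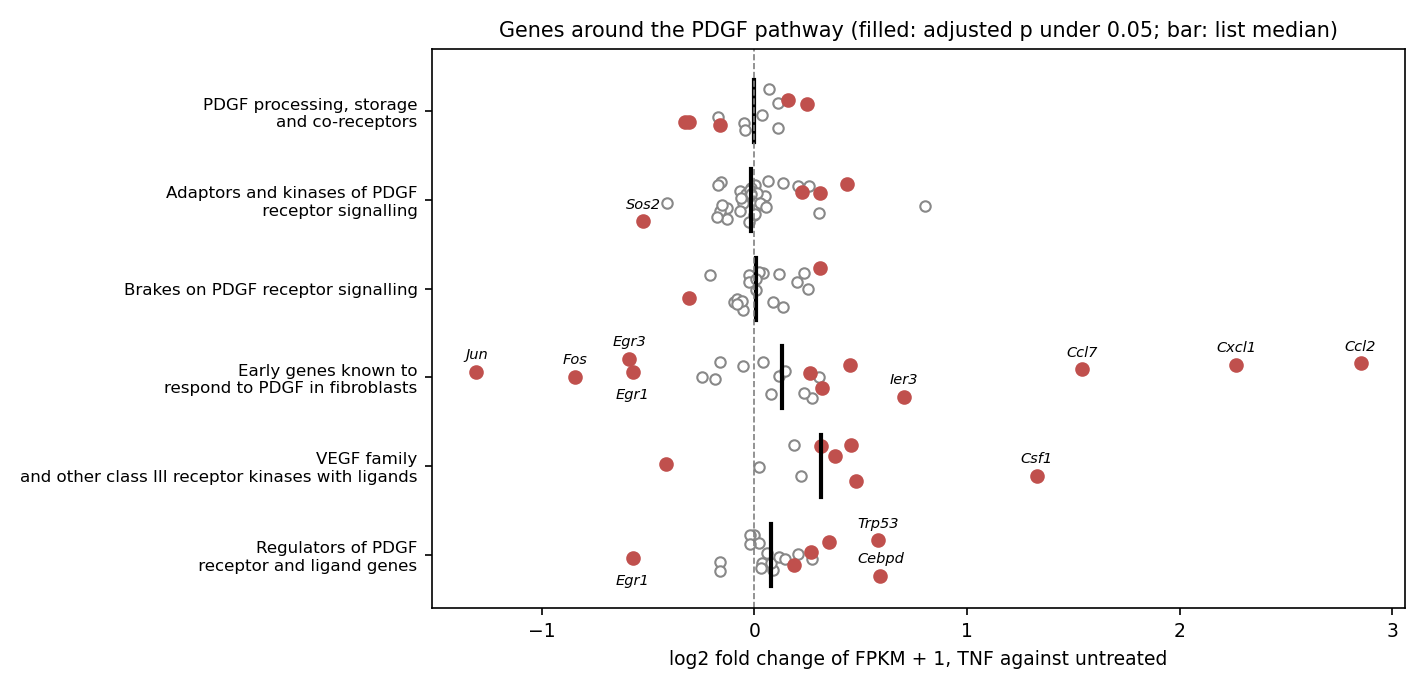
Log2 fold change of FPKM + 1, TNF against untreated (horizontal axis), of each tested gene in the 6 lists, with the list median as a bar. Filled points passed at an adjusted p under 0.05, and those beyond 0.5 in size are named. Medians lie between -0.02 and 0.31, and the early genes reach from Jun (-1.31) to Ccl2 (2.85).

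Between TNF plus WBG and TNF, 1 of the 115 tested genes in these lists was called: Cxcl1 rose from 10.4 ± 0.99 to 23.9 ± 3.16 FPKM (limma log2 fold change 1.12, adjusted p = 0.00514). Over all genes tested, 0.0998% were called. An unadjusted p under 0.05 was reached by 21 of the 115 (18.3%) and by 9.06% of all genes tested. The other 5 lists had 0 calls, with medians between -0.02 and 0.01. Their most abundant genes were Sparc, a matrix protein that binds PDGF-B (log2 -0.05), and the co-receptor Lrp1 (-0.16) in the first, Mapk3 (-0.11) and Akt1 (-0.08) among the kinases, Lrig1 (0.06) and Spred2 (0.00) among the restraining genes, Vegfa (0.16) and Csf1 (0.01) among the relatives, and Trp53 (-0.04) and Nr2f1 (-0.07) among the regulators. Without TNF replicate 3, 1 gene of the adaptor and kinase list was called lower.

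With TNF plus WBG against untreated, 9.19% of all genes tested were called. The early genes again moved both ways, 8 of 22 up and 4 down, 54.5% of those tested (limma, median log2 fold change 0.15, all genes 0.00). Of 12 tested genes that process or bind PDGFs 1 rose and 3 fell (33.3%). Among 35 adaptors and kinases 2 rose and 0 fell (5.7%), and among 20 restraining genes 1 rose and 0 fell (5.0%), shares below that of all genes. Of 9 relatives 5 rose and 1 fell (66.7%, median 0.38), and of 21 regulators 5 rose and 2 fell (33.3%, median 0.04). Plat (log2 -0.27), Nrp1 (-0.37), Jun (-1.14) and Egr1 (-0.81) were lower, and Lrig1 (0.37), Csf1 (1.33), Trp53 (0.55) and Cebpd (0.94) higher, each past the test. The rises of adaptors and kinases numbered 1 on omission of the first untreated library or of WBG replicate 1 or 2. The rises of relatives numbered 2 on omission of untreated replicate 1 or 3 or WBG replicate 2, and 3 on omission of WBG replicate 1. Their fall was lost on omission of untreated replicate 2 or any library with WBG, and 1 of the regulators fell on omission of untreated replicate 3 or WBG replicate 2.

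To place the 2 called genes among all others, profiles of log2(FPKM + 1) over the 9 libraries, each centred on its own mean, were compared by the root-mean-square difference. Closest to Pdgfb were Ano8, a TMEM16 family gene (0.029, on the log2 scale), the phosphatase gene Ptpn13 (0.035) and Apcdd1, a Wnt inhibitor gene (0.036), where Pdgfb itself varied by 0.17 about its mean. Ano8 went from 24.2 ± 1.15 FPKM in untreated to 31.0 ± 0.45 FPKM in TNF and 29.5 ± 0.43 FPKM in TNF plus WBG libraries. Closest to Pdgfrb were Tst, the sulfurtransferase rhodanese (0.036), the transcription factor Sox2 (0.043) and Oaf (0.046), where Pdgfrb varied by 0.25. Sox2 went from 41.2 ± 1.51 to 27.8 ± 0.32 and 27.8 ± 2.69 FPKM. These genes were picked for their likeness, so their differences between groups are a description.

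**Figure D5:**
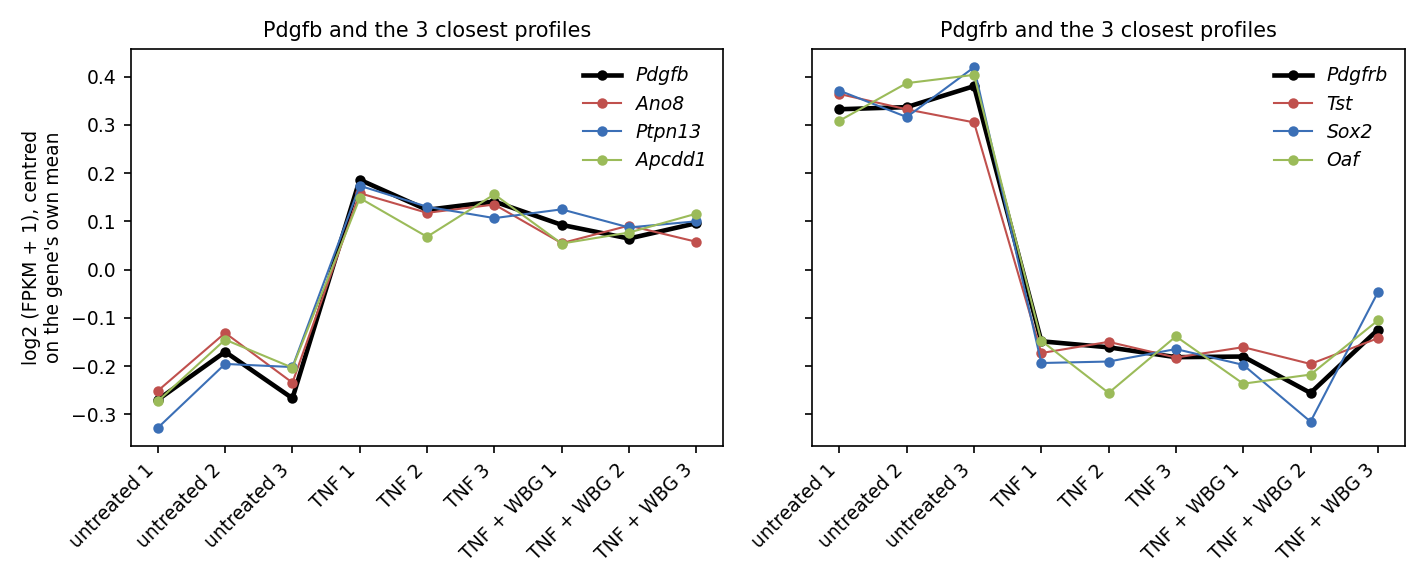
Log2(FPKM + 1) of Pdgfb (left) and Pdgfrb (right), in black, with the 3 genes of the most similar profile, each centred on its own mean (vertical axis), over the 9 libraries (horizontal axis). Pdgfb and its neighbours step up and Pdgfrb and its neighbours step down between untreated and TNF libraries, and the TNF plus WBG libraries stay near the TNF ones.

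In GENCODE M21, exons of Pdgfa overlap 6330403L08Rik (3.95 to 4.90 FPKM over the libraries), those of Pdgfc overlap Gm16000 (at most 0.23 FPKM) and those of Pdgfra overlap 3 genes of at most 0.24 FPKM. Exons of Pdgfb, Pdgfd and Pdgfrb overlap no other gene. Among the other genes named, exons of Nrp1, Furin, Gab1, Lrig1, Jun, Junb, Il34, Flt3l, Csf1r, Cebpd, Foxf1, Nr2f1, Ano8, Ptpn13, Ankrd37 and the markers Itgam, Mcam, Notch3 and Abcc9 overlap another annotated gene. The sources used here do not give whether strand was used in making the FPKM, so reads of such pairs cannot be told apart.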

How the data were processed

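RNA of 9 mouse libraries, 3 per group, was sequenced as poly-A selected, paired-end libraries, per the labels' protocols. The values are FPKM made and deposited by the authors, 1 per gene identifier and library. The build, aligner, annotation and counting program were not given in the sources used here. The file holds no counts. GENCODE M21 gave symbols for 55144 of the 56289 identifiers.

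Genes with at least 1 FPKM in at least 3 libraries were kept (13026). Log2(FPKM + 1) was fitted with limma 3.58.1 (R 4.3.3; trend, all 9 libraries, group as only term), two-sided, with Benjamini-Hochberg adjustment over all genes kept and calls at an adjusted p under 0.05. Log2 fold changes hold the pseudocount and understate changes of low genes. The pipeline was tested on simulated data. Depth was inferred from single-exon genes, whose FPKM multiplied by length fall on steps: 27.8 to 32.0% of values lay within 0.02 of a whole step, where 4% would if evenly spread.

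Members and lists were chosen with earlier results of these data known. Genes named from each list are up to 3 called genes per direction by absolute change in the first 2 comparisons, or the 2 of highest mean FPKM where none was called; for each called member, the 3 closest profiles without predicted or clone names. Alternatives were pseudocounts of 0.1 and 5, other filters and scalings, other variance models, a fit of 6 libraries, a replicate block and omission of each library. Summaries used pandas 2.3.3 and numpy 2.4.6 in Python 3.11.15, figures matplotlib 3.10.9. No library was left out, and 1 gene of the lists, which the list counts include, is not reported here by name.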

Additional observations from a re-analysis of the deposited data

How the results depend on the processing

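The rise of Pdgfb and the fall of Pdgfrb passed in all 20 alternatives in both comparisons with untreated libraries. With TNF, Pdgfb ranged from 0.33 to 0.42 on the log2 scale (adjusted p up to 0.0048) and Pdgfrb from -0.53 to -0.48 (up to 0.00062). No other PDGF gene passed in any alternative, except Pdgfd with TNF, whose value ranged from -0.37 (without untreated replicate 3) to -0.12 over the omissions. Pdgfd (mean under 5 FPKM) was not tested under the stricter filter. Values that changed sign on leaving out 1 library were all small and uncalled. Between TNF plus WBG and untreated they were Pdgfd (0.019 without untreated replicate 2; range -0.237 to 0.019), Pdgfa (-0.071 without untreated replicate 3 and -0.055 without TNF plus WBG replicate 2; range -0.071 to 0.157) and the share of Pdgfa in the ligand sum (0.029 percentage points without untreated replicate 2; range -3.454 to 0.029). Between TNF plus WBG and TNF they were Pdgfrb (0.011 without TNF plus WBG replicate 2; range -0.054 to 0.011), Csf1 (-0.005 and -0.037 without TNF replicates 1 and 3; range -0.037 to 0.061), Spred2 (-0.024 without TNF replicate 2 and -0.025 without TNF plus WBG replicate 1; range -0.025 to 0.028) and Vegfa (-0.008 without TNF plus WBG replicate 2; range -0.008 to 0.259). The summed ligand FPKM, TNF minus untreated, was -1.04 without untreated replicate 3 (range -1.04 to 3.98). Over all genes, 549 were lower with TNF and 346 to 514 over the omissions (346 without untreated replicate 3, 357 without TNF replicate 2, 360 without TNF replicate 3). Between TNF plus WBG and TNF 4 were lower, 1 to 5 over the omissions (1 without untreated replicate 1, 2 without untreated replicate 3), 1 with only the 6 libraries compared and 2 with the replicate block. Same-numbered libraries of different groups did not deviate together (correlations across genes of -0.072 to 0.107), so the numbers were not taken as pairs, and the block changed no call of a PDGF gene. Of the list counts with TNF, the rises of relatives numbered 2 with no filter and 3 with the stricter filter, quantile normalization, 6 libraries or the block, and their fall 0 with no filter, 6 libraries or the block. The rises of processing and binding genes numbered 1 with no filter, rescaling to equal sums, quantile normalization, 6 libraries or no trend, the falls of restraining genes 0 with no filter or the block, and those of adaptors 2 with 6 libraries. Against untreated libraries with TNF plus WBG, the rises of relatives numbered 2 with no filter, 3 with the stricter filter and 1 with 6 libraries, and their fall 0 with no filter, 6 libraries or the block. The falls there numbered 1 for adaptors with the block and 1 for regulators with 6 libraries. The causes of these changes were not tested. With 3 libraries a group, differences of Pdgfa, Pdgfd and Pdgfra anywhere within the intervals given for them remain possible.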

Other observations

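Replicate 2 had the highest Pdgfa of the 3 libraries in the untreated, TNF and TNF plus WBG groups (28.6, 21.6 and 27.8 FPKM), which was noticed after its values were seen. The other replicates did not keep their order: replicate 1 was above replicate 3 in the untreated and TNF plus WBG groups and below it in the TNF group. Within the family, deviations from the group mean over the 9 libraries correlated with those of Pdgfa at r = 0.81 for Pdgfd, 0.40 for Pdgfb, 0.05 for Pdgfra, -0.37 for Pdgfc and -0.70 for Pdgfrb. Among 13026 genes the closest were Dpt, the dermatopontin gene of the extracellular matrix (r = 0.99), and Ankrd37 (0.99). Pdgfd held rank 285 in this order, so its value was not particular to the family. Dpt had 5.88 FPKM in replicate 2 against 3.30 and 4.17 FPKM in untreated, 5.35 against 4.40 and 4.71 FPKM in TNF, and 6.34 against 4.71 and 5.02 FPKM in TNF plus WBG libraries. All genes share the libraries and their depth, and within-group deviations of 3 libraries leave few independent values, so these numbers are a description.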
